A study of Mus musculus with 8 samples.

Results

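The mitosis and cytokinesis machinery of neonatal cardiomyocytes (NCMs) was followed through 50 genes, chosen by gene symbol for their known parts in cell division. They were 50 of 27179 counted genes, and all 50 were among the 14966 genes with enough reads to be tested. RNA-seq was performed on NCMs of male C57Bl/6J mice on postnatal day 0, with the cells of 1 heart in each library. Every dam was mated in filtered air (FA), and pregnant mice then breathed either FA or diesel exhaust (DE) from E0.5 to E17.5 (days of embryonic development). Libraries were deposited for 4 FA offspring (replicates 2, 3, 4 and 6) and 4 DE offspring (replicates 1, 3, 5 and 7), whereas the study's methods state 3 hearts per group, so all 8 were used. The sources do not say which hearts shared a dam. Values below are listed in the replicate order just given, as CPM, a gene's fragments relative to the library total, scaled by TMM factors, which correct for differences in library composition. The comparison asks how gestational DE exposure relates to transcript levels of the division machinery at birth.

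Cells divide by entering mitosis under the kinase Cdk1 and its B-type cyclins, attaching chromosomes to the spindle through kinetochores, and delaying anaphase through a checkpoint until every chromosome is attached. The central spindle, the chromosomal passenger complex and the exchange factor Ect2 then place the contractile ring that separates the daughter cells in cytokinesis. Mouse cardiomyocytes divide before birth, and in the first days after birth most of them complete nuclear division without cytokinesis and become binucleate.

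Library totals ran from 17943024 to 39839737 fragments, and the biological coefficient of variation was 15.95%. The closest pair of libraries, FA replicates 2 and 4, still differed by more than sampling noise, with a chi-square of 5.37 per gene. The cells were enriched rather than sorted, by letting fibroblasts attach to a dish in medium with Ara-C, an inhibitor of DNA synthesis, before the suspended cells were collected. The labelled cell type matched its markers, with 16 cardiomyocyte genes that summed to between 74960 and 92810 CPM in every library, against 2135 to 6464 CPM for 12 fibroblast genes. The name of each sample holds a further number whose meaning the sources do not give. It is 12 for DE replicates 3 and 5 and 11 for every other library.

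Genes of the division machinery were higher in DE NCMs than in FA NCMs, by about 1.3-fold at the median. The log2 fold change was above 0 for 49 of the 50 genes, beside 50.5% of all tested genes. Its median over the 50 was 0.38, beside 0.0037 over all tested genes. With edgeR's quasi-likelihood test and Benjamini-Hochberg adjustment, 17 genes were called, that is, reached an adjusted p of at most 0.05 with at least 25% between the group levels. This compares with 5.8% of all tested genes. All 17 were higher in DE (3.58% of all tested genes), and 0 were called lower (2.22% of all tested genes). The gene with a value below 0 was Cenpe, at -0.07 with an unadjusted edgeR p of 0.634. An unadjusted p under 0.05 was reached by 35 of the 50, all of them higher in DE, beside 25.6% of all tested genes in either direction and 13.4% higher. For 25 genes every DE library lay above every FA library, beside 7.43% of all tested genes, and for 0 genes every DE library lay below, beside 7.26%. In bulk RNA such as this, fewer or more dividing cells cannot be told apart from less or more RNA per dividing cell. Nor do the data show which cells of the enriched preparations held these transcripts, and markers of other cells are given below.

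**Figure D1:**
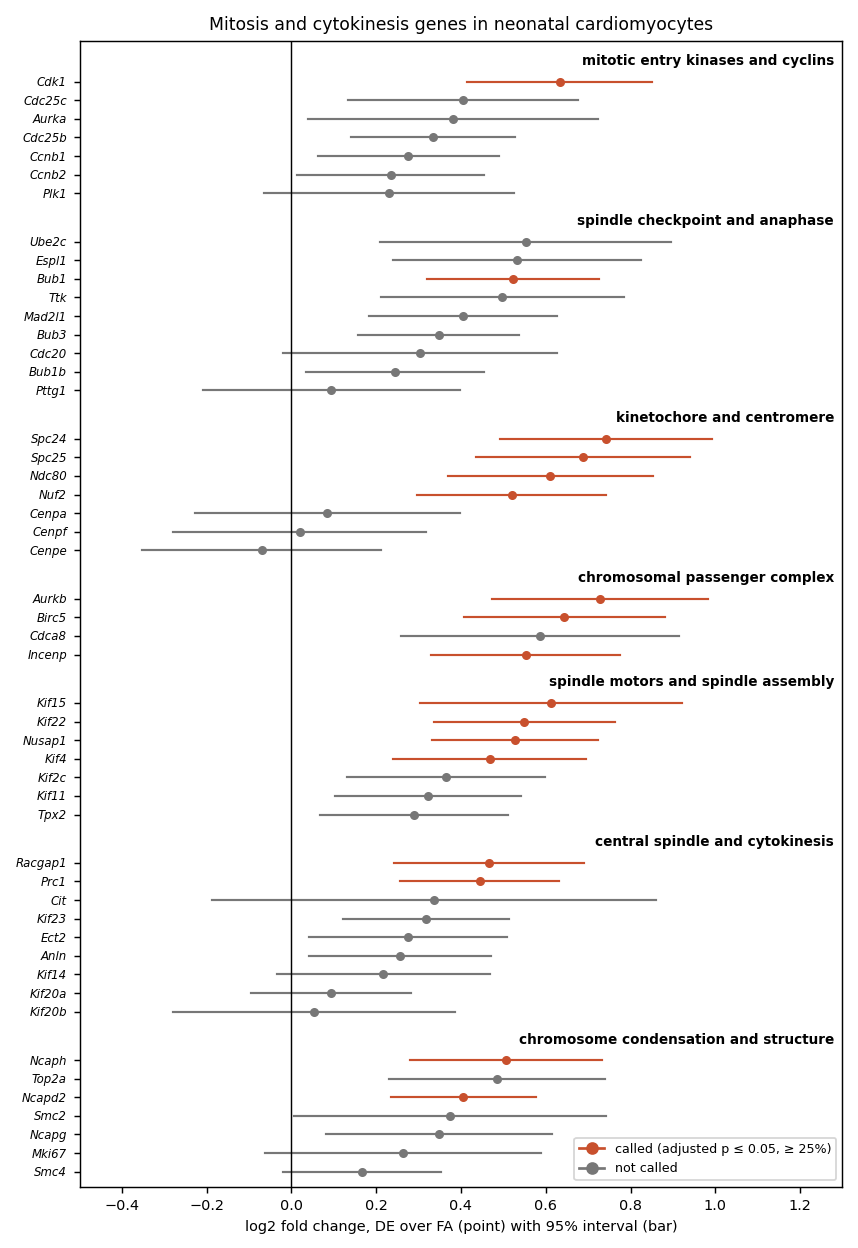
Log2 fold change of DE over FA for the 50 mitosis and cytokinesis genes, grouped by role, from edgeR over 4 FA and 4 DE libraries. Points are estimates, and red marks the 17 called genes. Bars are approximate 95% intervals, narrower than the test allows. All points but that of Cenpe lie above 0, and the highest, Spc24, stands at 0.74.

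The 8 libraries were not evenly spread within their groups. FA replicate 6 was the highest FA library for 43 of the 50 genes, while FA replicate 3 was the lowest for 23 and FA replicate 4 for 22. Among the DE libraries, replicate 5 was the highest for 24 genes and replicate 1 for 21, and replicate 3 was the lowest for 24. The lowest of all 8 values was in an FA library for every gene, and the highest was in a DE library for all but 2 genes. Summed over the 50 genes, the level was 2530, 2296, 2443 and 2904 CPM in FA and 3383, 2998, 3338 and 3160 CPM in DE, with no overlap between the groups.

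**Figure D2:**
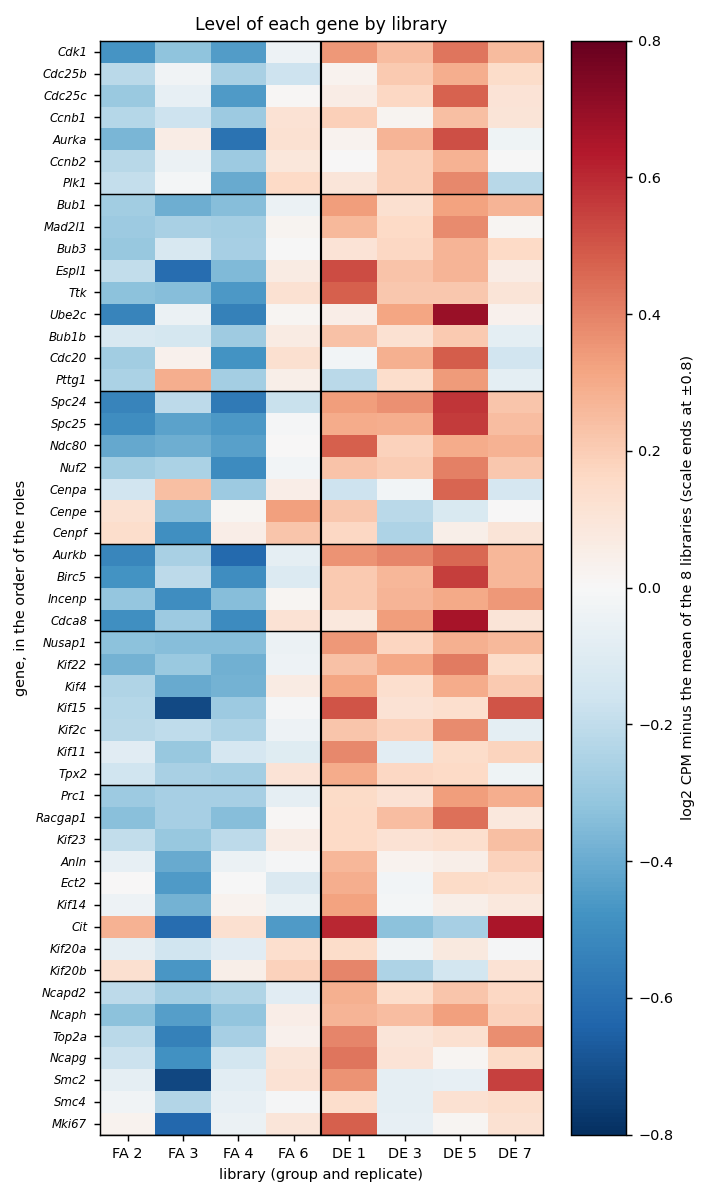
Level of each of the 50 genes (rows, in the order of their roles) in each library (columns, FA left of the line and DE right), as log2 CPM minus the gene's mean over the 8 libraries. FA replicates 2, 3 and 4 are below the mean for most genes, FA replicate 6 lies near it (mean 0.02), and all 4 DE libraries lie above it (means 0.12 to 0.27).

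How many genes were called depended on single libraries of both groups. Without FA replicate 4, 2 genes were called (Spc24 and Aurkb, beside 1.53% of all tested genes), and without FA replicate 2, 3 were called (the same genes and Cdk1, beside 1.69%). The count was 8 without FA replicate 3 (2.8% of all tested genes), 24 without FA replicate 6 (5.34%), 16 without DE replicate 1 (7.93%), 8 without DE replicate 3 (1.82%), 10 without DE replicate 5 (3.56%) and 14 without DE replicate 7 (4.58%). The median log2 fold change in these 8 fits stayed between 0.36 and 0.46, and 47 to 50 genes were above 0. With all libraries, 25 genes were called with DESeq2 (7.49% of all genes it tested), 25 with edgeR's likelihood ratio test (10.7%), 25 with scaling by library totals (6.82%), 19 with no filter on low counts (3.98%) and 17 with limma-voom (5.75%). A test of whether the difference exceeds 25% called 0 of the 50 (0.762% of all tested genes).

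Promoters of many division genes carry a cell cycle homology region (CHR), bound by the DREAM and MuvB complexes, close to CCAAT boxes bound by NF-Y. RefSeq gave a promoter window on GRCm38.p6, from 250 bases before to 50 after the start, for 43 of the 50 genes. A gene was counted if any of its windows held a motif (46 windows, with 2 for 3 genes), whereas the share over all windows counts each window. A CHR, searched on both strands as TTTGAA or in its variant form TTCGAA, was in 34 of the 43 (79.1%), beside 19.2% of all 32851 windows. CCAAT, also on both strands, was in 31 of the 43 (72.1%), beside 37.4% of all windows. E2F motifs were searched on both strands in a first form TTCCCGC, a second form that reads TTGGCGC and can overlap a reverse CCAAT box, a further form that reads TTCGCGC and a last form that reads TTGCCGC, and at least 1 was in 8 (18.6%), beside 9.57%. The CHR was present in 10 of 14 called genes with a window and in 24 of 29 that were not called. The 120 bases before the start are shown 5′ to 3′ for 3 called genes (Cdk1, Kif22, Prc1) and 3 that were not called (Cdc20, Top2a, Ect2), all of which hold both motifs there. These genes were picked for holding both. Within these 120 bases, 14 of the 43 genes had a CHR, 29 had CCAAT and 10 had both. Capitals mark the CHR and the CCAAT box, on either strand.
Cdk1 promoter, chr10:69352913-69353032, minus strand: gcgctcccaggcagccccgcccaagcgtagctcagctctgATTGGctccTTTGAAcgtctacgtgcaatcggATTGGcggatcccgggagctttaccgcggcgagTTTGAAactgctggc
Kif22 promoter, chr7:127042421-127042540, minus strand: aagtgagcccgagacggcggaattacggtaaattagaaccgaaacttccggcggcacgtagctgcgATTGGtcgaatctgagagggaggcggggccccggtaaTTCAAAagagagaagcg
Prc1 promoter, chr7:80294356-80294475, plus strand: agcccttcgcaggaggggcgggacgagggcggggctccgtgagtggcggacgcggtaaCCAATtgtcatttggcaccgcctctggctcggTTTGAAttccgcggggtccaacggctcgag
Cdc20 promoter, chr4:118437344-118437463, minus strand: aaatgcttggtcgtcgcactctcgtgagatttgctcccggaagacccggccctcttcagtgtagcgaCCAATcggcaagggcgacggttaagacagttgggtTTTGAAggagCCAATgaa
Top2a promoter, chr11:99024190-99024309, minus strand: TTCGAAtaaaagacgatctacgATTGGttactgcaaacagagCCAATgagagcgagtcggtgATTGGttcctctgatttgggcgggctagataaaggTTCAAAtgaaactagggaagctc
Ect2 promoter, chr3:27153879-27153998, minus strand: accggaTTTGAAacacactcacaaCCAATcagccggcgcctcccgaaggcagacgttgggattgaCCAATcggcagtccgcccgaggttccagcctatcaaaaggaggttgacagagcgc
In the promoters of Cdk1 and Kif22 the marked CHR nearest the start followed a reverse CCAAT box, and in those of Prc1 and Cdc20 a CCAAT box stood upstream of it. These matches are descriptions of the sequence and not measured sites of binding.

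Mitotic entry was represented by 7 genes, of which 1, Cdk1, was called. Cdk1 (Entrez 12534, chr10:69335146-69352912 on GRCm38.p6), the kinase that drives entry into mitosis, stood at 50.9, 56.2, 51.8 and 68.4 CPM in FA and at 89.8, 83.7, 94.8 and 83.8 CPM in DE. The lowest DE library was well above FA replicate 6, the highest FA library. Cdk1 rose 1.55-fold (log2 fold change 0.63 ± 0.11 SE, edgeR adjusted p = 0.0106). Without FA replicate 4 its adjusted p was 0.0525, and it was called when any other library was left out. The partners of Cdk1 had smaller values. Plk1, the polo kinase that acts from mitotic entry to cytokinesis, stood at 21.2, 23.9, 18.3 and 27.1 CPM in FA and 25.8, 27.6, 31.6 and 20.8 CPM in DE, with overlapping groups. Its log2 fold change of 0.23 had an approximate 95% interval of -0.065 to 0.52. The value was 0.13 without DE replicate 5 and 0.14 without FA replicate 4. The B-type cyclins Ccnb1 and Ccnb2 were not called. The unadjusted edgeR p of Ccnb2 was 0.0602 although its interval leaves out 0, because these approximate intervals are narrower than the test allows. The log2 fold changes of Ccnb1 and Ccnb2 were 0.28 (0.063 to 0.49) and 0.23 (0.014 to 0.45). For the activating phosphatases Cdc25b and Cdc25c, the latter with 12.7% of its exons overlapping those of Gm3550 on the opposite strand, these values were 0.33 and 0.40, with no overlap between groups and edgeR adjusted p of 0.0693 and 0.103. Aurka, the spindle pole kinase, was at 0.38, and its groups overlapped. The 7 genes had a median of 0.33.

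The spindle checkpoint and anaphase group held 9 genes, with log2 fold changes of 0.09 to 0.55, a median of 0.40 and 1 call. Bub1, a checkpoint kinase that also marks the inner centromere, stood at 34.6, 32.1, 33.3 and 40.8 CPM in FA and 53.1, 46.0, 52.5 and 50.8 CPM in DE. All 4 DE values exceeded all 4 FA values, and Bub1 rose 1.44-fold (log2 fold change 0.52 ± 0.10 SE, edgeR adjusted p = 0.0179). Its call was lost without FA replicate 2 or FA replicate 4 (adjusted p up to 0.0781). The other checkpoint components Mad2l1, Bub3, Ttk and Bub1b had log2 fold changes of 0.40, 0.35, 0.50 and 0.24. Their edgeR adjusted p values were 0.0592, 0.0594, 0.0682 and 0.179, so none passed. With DESeq2, edgeR's likelihood ratio test or offsets for gene length and GC content, Mad2l1, Bub3 and Ttk were each called, as were Ube2c and Espl1 (DESeq2 adjusted p of 0.0165 to 0.0341).

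Ube2c, Espl1, Cdc20 and Pttg1 act at the start of anaphase and were not called. Ube2c, the ubiquitin-conjugating enzyme of the anaphase-promoting complex, stood at 40.0, 55.8, 39.7 and 58.1 CPM in FA and 59.9, 71.7, 92.9 and 59.0 CPM in DE. Its groups did not overlap, but DE replicates 1 and 7 lay close to FA replicates 3 and 6, and its adjusted p was 0.0842 with edgeR at a log2 fold change of 0.55. Of the Ube2c exons, 22.8% overlapped those of Tnnc2 on the opposite strand, so its count is uncertain. Espl1, the separase that cuts cohesin, had a log2 fold change of 0.53 with an edgeR adjusted p of 0.0599, and Cdc20, an activator of the anaphase-promoting complex, one of 0.30 (-0.020 to 0.63). The value of Cdc20 was 0.18 without DE replicate 5 and 0.20 without FA replicate 4. Pttg1, the securin that restrains separase, stood at 27.4, 40.0, 27.1 and 33.7 CPM in FA and 28.1, 36.1, 41.4 and 31.0 CPM in DE. The Pttg1 groups overlapped across most of their range, and its log2 fold change of 0.09 had an interval of -0.21 to 0.40.

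The kinetochore and centromere genes fell into those of the NDC80 complex, all 4 of which rose, and 3 CENP genes, of which none was called. The NDC80 complex, built of Ndc80, Nuf2, Spc24 and Spc25, is the part of the kinetochore that holds microtubule ends. Spc24 (Entrez 67629, chr9:21755434-21760446) stood at 11.0, 13.7, 10.7 and 14.0 CPM in FA and 20.0, 20.4, 23.6 and 18.5 CPM in DE. It rose 1.67-fold (log2 fold change 0.74 ± 0.13 SE, edgeR adjusted p = 0.00989). For Spc25 the levels were 25.3, 26.5, 25.9 and 35.5 CPM in FA and 43.7, 43.5, 52.5 and 42.2 CPM in DE. FA replicate 6 and DE replicate 5 were each set above the rest of their group, and the groups stayed apart. Spc25 rose 1.61-fold (log2 fold change 0.69 ± 0.13 SE, edgeR adjusted p = 0.0141). Ndc80 levels were 16.1, 16.3, 15.9 and 21.5 CPM in FA and 29.9, 24.4, 26.3 and 26.0 CPM in DE, a rise of 1.53-fold (log2 fold change 0.61 ± 0.12 SE, adjusted p = 0.0197 with edgeR). Nuf2 levels were 22.5, 23.0, 19.3 and 26.9 CPM in FA and 32.0, 31.5, 36.2 and 31.7 CPM in DE, a rise of 1.43-fold (log2 fold change 0.52 ± 0.11 SE, adjusted p = 0.0266 with edgeR). In all 4 genes of the complex the lowest DE library was above the highest FA library. Of 8 fits with 1 library left out, Spc24 was called in all 8, Spc25 in 6, Ndc80 in 5 and Nuf2 in 3. The losses included those without FA replicate 2 and without FA replicate 4 for these 3 genes, with adjusted p up to 0.0618 for Spc25, 0.0803 for Ndc80 and 0.0976 for Nuf2.

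The CENP genes had values near 0. Cenpf, a large kinetochore protein, stood at 114, 73.5, 107 and 120.4 CPM in FA and 116, 87.1, 107 and 111 CPM in DE. FA replicate 3 was the lowest library and FA replicate 6 the highest, so the DE libraries lay within the FA range. The log2 fold change of Cenpf was 0.02 (-0.28 to 0.32), that of Cenpe, the kinetochore motor, -0.07 (-0.35 to 0.21), and that of Cenpa, the centromeric histone H3 variant, 0.08 (-0.23 to 0.40). The upper ends of these intervals lie below the estimates for Spc24, Spc25, Ndc80 and Nuf2, but the difference between both sets of genes was not tested.

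**Figure D3:**
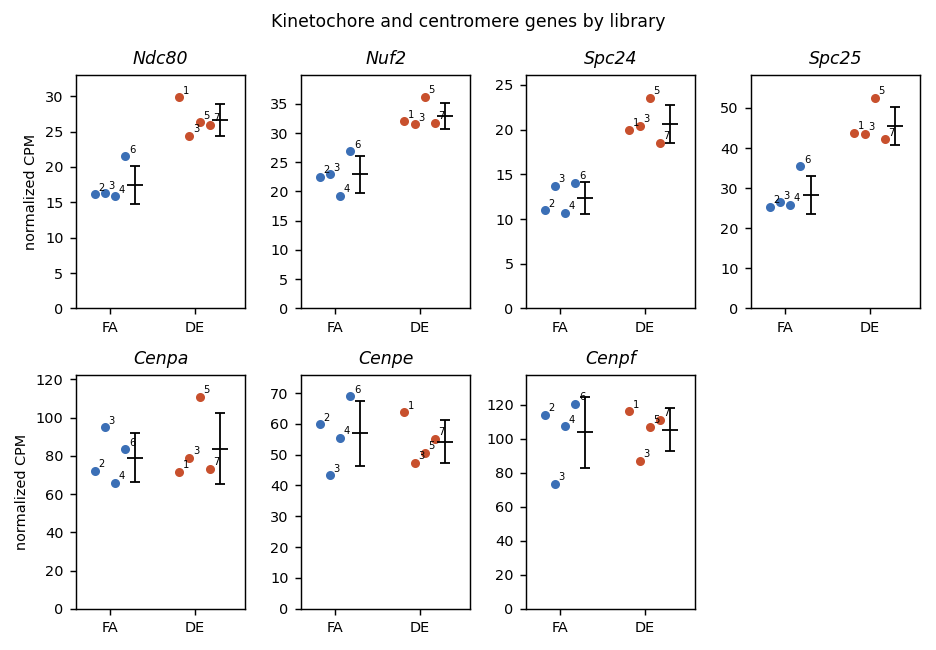
Normalized CPM of the 7 kinetochore and centromere genes in each library (points, numbered by replicate; FA blue, DE red), with the mean and SD of each group of 4 beside them. DE and FA points are apart for Ndc80, Nuf2, Spc24 and Spc25 and overlap for Cenpa, Cenpe and Cenpf.

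The chromosomal passenger complex corrects faulty attachments and later moves to the central spindle, and 3 of its 4 genes rose. Aurkb, its kinase, stood at 11.0, 13.2, 10.3 and 15.1 CPM in FA and 20.4, 20.8, 21.9 and 19.1 CPM in DE. The groups did not overlap, and Aurkb rose 1.66-fold (log2 fold change 0.73 ± 0.13 SE, edgeR adjusted p = 0.0112). Aurkb, like Spc24, was still called whichever library was left out, but neither was called with prefix 11 libraries only (edgeR adjusted p of 0.0654 and 0.0591) or with the 25% built into the test (0.0856 and 0.0723). Birc5, or survivin, the subunit that binds the centromere, stood at 31.7, 38.3, 31.4 and 41.0 CPM in FA and 51.2, 53.1, 64.8 and 53.2 CPM in DE. Birc5 rose 1.56-fold (0.64 ± 0.12 SE on the log2 scale, edgeR adjusted p = 0.0142), with DE replicate 5 above the other DE libraries. Incenp, the scaffold, stood at 34.0, 29.9, 33.3 and 42.6 CPM in FA and 48.7, 50.9, 51.9 and 53.6 CPM in DE, and rose 1.47-fold (0.55 ± 0.11 SE on the log2 scale, edgeR adjusted p = 0.0213). Cdca8, or borealin, had a log2 fold change of 0.59, but FA replicate 6, at 41.6 CPM, lay above DE replicates 1 and 7, at 40.7 and 41.2 CPM, and its edgeR adjusted p was 0.062. The calls of Birc5 and Incenp were lost without FA replicate 2 or FA replicate 4, with adjusted p up to 0.0642 and 0.0829, and that of Incenp also without FA replicate 3 or DE replicate 3. The median of the 4 genes was 0.62.

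Spindle motors and assembly factors comprised 7 genes, all with an unadjusted edgeR p under 0.05, and 4 were called. Nusap1, which bundles spindle microtubules, stood at 31.9, 31.5, 31.6 and 38.7 CPM in FA and 51.0, 45.1, 48.7 and 47.9 CPM in DE. FA replicates 2, 3 and 4 were almost alike, FA replicate 6 was higher, and every DE library was higher still. Nusap1 rose 1.44-fold (log2 fold change 0.53 ± 0.10 SE, edgeR adjusted p = 0.0148). Kif22, a kinesin that pushes chromosome arms outward, stood at 23.4, 24.8, 23.4 and 29.6 CPM in FA and 35.9, 37.9, 40.7 and 33.7 CPM in DE, and rose 1.46-fold (0.55 ± 0.11 SE, adjusted p = 0.0186 with edgeR). Kif4, a chromosome-bound kinesin that also acts at the central spindle, and Kif15, a spindle motor, rose by 0.47 and 0.61 on the log2 scale, with edgeR adjusted p of 0.0403 and 0.0454. Of the Kif4 exons, 15.1% overlapped those of Pdzd11 on the opposite strand, so its count is uncertain. The calls of Kif4 and Kif15 are those nearest the threshold, and both were lost when any library other than FA replicate 6 was left out (adjusted p up to 0.137 and 0.126). Kif11, the motor that pushes spindle poles apart and the most abundant of the group, stood at 118, 102, 115 and 118 CPM in FA and 165, 119, 139.6 and 143 CPM in DE. DE replicate 3 lay only just above the highest FA library, and the adjusted p of Kif11 was 0.106 with edgeR at a log2 fold change of 0.32. Tpx2, a spindle assembly factor that activates Aurka, stood at 46.2, 43.0, 42.6 and 55.5 CPM in FA and 63.3, 57.7, 57.6 and 50.2 CPM in DE, with FA replicate 6 inside the DE range. Its log2 fold change was 0.29 (0.067 to 0.51), and that of Kif2c, which shortens microtubules at centromeres, 0.36 (0.13 to 0.60). Nusap1 lost its call without FA replicate 2 or FA replicate 4 (adjusted p up to 0.069), and Kif22 in those fits and without DE replicate 3 (up to 0.0793).

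The central spindle and cytokinesis group, the one that sets binucleation apart from complete division, held 9 genes with log2 fold changes of 0.05 to 0.47. Their median was 0.28, and 2 of the 9 were called. Prc1, which bundles the antiparallel microtubules of the central spindle, stood at 75.0, 76.3, 76.2 and 87.2 CPM in FA and 102, 99.1, 116 and 112 CPM in DE. All DE libraries were above all FA libraries, and Prc1 rose 1.36-fold (log2 fold change 0.44 ± 0.096 SE, edgeR adjusted p = 0.0249). Racgap1, a centralspindlin subunit that recruits Ect2, stood at 79.4, 83.4, 78.9 and 101 CPM in FA and 112, 119, 136 and 106 CPM in DE, and rose 1.38-fold (0.47 ± 0.11 SE, adjusted p = 0.039 with edgeR). Both calls were lost without FA replicates 2, 3 or 4 or DE replicates 3 or 5, and that of Prc1 also without DE replicate 7, with adjusted p up to 0.099 for Prc1 and 0.136 for Racgap1. Of the Prc1 exons, 11.1% overlapped those of Rccd1 on the opposite strand, so its count is uncertain. Kif23, the motor subunit of centralspindlin, had a log2 fold change of 0.32 with no overlap between groups and an edgeR adjusted p of 0.0818.

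Of the 9 genes, Ect2, Anln, Cit, Kif20b, Kif20a and Kif14 were not called. Ect2, which triggers assembly of the contractile ring at the cell equator, stood at 53.7, 39.0, 53.4 and 49.4 CPM in FA and 65.5, 52.7, 59.6 and 58.8 CPM in DE. DE replicate 3 lay below FA replicates 2 and 4, and FA replicate 3 was the lowest. The log2 fold change of Ect2 was 0.28 (0.042 to 0.51, edgeR adjusted p = 0.175), and 0.18 without FA replicate 3. Anln, or anillin, the scaffold of the ring, stood at 73.8, 58.6, 74.9 and 77.1 CPM in FA and 93.0, 78.8, 80.0 and 87.9 CPM in DE, without overlap, and had a log2 fold change of 0.26 (0.041 to 0.47, edgeR adjusted p = 0.172). Cit, the citron kinase of late cytokinesis, stood at 12.1, 6.53, 10.9 and 7.28 CPM in FA and 15.1, 7.92, 8.28 and 15.7 CPM in DE. DE replicates 1 and 7 were above every FA library and DE replicates 3 and 5 were within the FA range. The approximate 95% interval of its log2 fold change, -0.19 to 0.86, was the widest of the 50 genes. The log2 fold change ran from 0.17 without DE replicate 7 to 0.51 without FA replicate 2. It was 0.73 with the name prefix as a term and with prefix 11 only. Kif20b, a kinesin of late cytokinesis, stood at 26.1, 17.3, 24.7 and 27.2 CPM in FA and 31.4, 20.2, 21.6 and 26.0 CPM in DE, with a log2 fold change of 0.05 (-0.28 to 0.39). Kif20a, which carries passenger proteins to the central spindle, was at 0.09 (-0.095 to 0.28), with 29.3% of its exons overlapping those of Cdc23 on the opposite strand and its count thus uncertain, and Kif14, a kinesin that binds citron kinase, was at 0.22 (-0.035 to 0.47). Without FA replicate 3 or DE replicate 1, Kif14 was at 0.14 in each fit, and Kif20a at 0.055 and 0.057. The mean log2 level of the 9 genes, centred on each gene's mean, was -0.07, -0.37, -0.08 and -0.03 in FA and 0.28, -0.02, 0.09 and 0.20 in DE. DE replicate 3 was thus close to FA replicates 2, 4 and 6 for cytokinesis genes, which it was not for the chromosomal passenger complex (0.31, against -0.45, -0.49 and -0.01). It was also close to FA replicate 6 for condensation genes (0.055 against 0.042) and kinetochore genes (0.08 against 0.056). Over all genes the relative level in DE replicate 3 fell with exon length (-0.09 per doubling), and the part of length here was not tested.

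**Figure D4:**
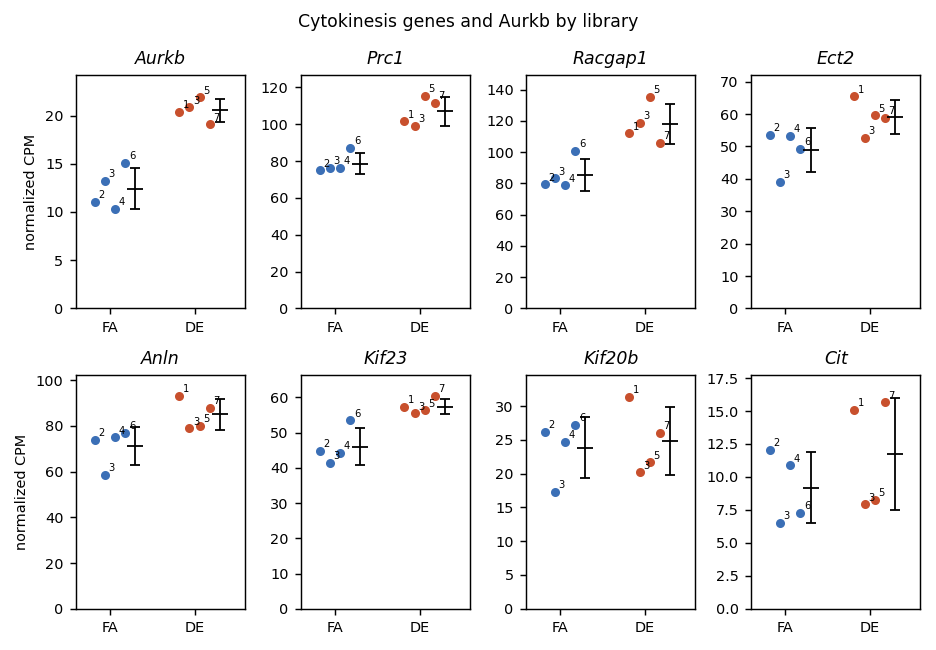
Normalized CPM of Aurkb and 7 central spindle and cytokinesis genes in each library (points, numbered by replicate; FA blue, DE red), with the mean and SD of each group of 4 beside them. DE and FA points are apart for Aurkb, Prc1, Racgap1, Anln and Kif23 and overlap for Ect2, Kif20b and Cit.

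Chromosome condensation and structure held 7 genes, of which 2 condensin I subunits rose. Ncapd2 stood at 92.8, 89.0, 91.0 and 101 CPM in FA and 131, 118, 125 and 120.3 CPM in DE, and rose 1.32-fold (log2 fold change 0.41 ± 0.087 SE, edgeR adjusted p = 0.0247). Ncaph stood at 24.5, 22.6, 24.6 and 31.8 CPM in FA and 37.0, 36.4, 38.5 and 34.9 CPM in DE, and rose 1.42-fold (log2 fold change 0.51 ± 0.12 SE, edgeR adjusted p = 0.0307). In neither gene did the groups overlap, and both calls were lost without FA replicates 2, 3 or 4 or DE replicates 3 or 5 (adjusted p up to 0.0992 and 0.108). The other condensin subunits Ncapg, Smc2 and Smc4 had log2 fold changes of 0.35, 0.37 and 0.17, with 13.4% of the Ncapg exons overlapping those of Lcorl on the opposite strand and its count thus uncertain. Smc4, an ATPase shared by both condensins, stood at 235, 203, 229 and 238 CPM in FA and 264, 228, 261 and 263 CPM in DE, with DE replicate 3 below FA replicates 2, 4 and 6. Top2a, the topoisomerase that untangles sister chromatids, had a log2 fold change of 0.49 without overlap and an edgeR adjusted p of 0.0515, just past the threshold. Mki67, the proliferation marker Ki-67 that coats mitotic chromosomes, stood at 292, 185, 277 and 305 CPM in FA and 398, 273, 289 and 311 CPM in DE. FA replicate 3 was far below the other libraries and DE replicate 1 above them, and the log2 fold change of 0.26 had an interval of -0.063 to 0.59. It was 0.12 if FA replicate 3 was left out and 0.13 if DE replicate 1 was. The value of Smc2 was 0.22 without FA replicate 3 and 0.24 without DE replicate 7.

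Levels of different genes were set side by side per kilobase of exon. The highest FA means were those of Smc4 at 43.4, Ccnb2 at 32.8, Mki67 at 26.3 and Cdc20 at 21.9 CPM per kb, and the lowest those of Cit at 0.56 and Kif14 at 0.93 CPM per kb. Within the NDC80 complex the FA means were 8.87 for Spc25, 4.80 for Spc24, 3.61 for Nuf2 and 2.69 CPM per kb for Ndc80, and in DE they were 14.3, 8.01, 5.18 and 4.10 CPM per kb. Within the passenger complex Aurkb had the lowest FA mean, 4.22 CPM per kb, and Birc5 the highest, 10.5 CPM per kb. The most and the least abundant genes, Smc4 and Cit, were both among those not called, and Cit had the lowest count of any gene in a library, 131 fragments.

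Libraries differed in how level depended on gene length. Over all genes with a known length (95.4% of those tested), the log2 level changed per doubling of exon length by 0.12, -0.06, 0.10 and -0.01 in FA and by 0.04, -0.09, -0.13 and 0.03 in DE. Exon length ran from 1531 bases for Ccnb2, which was not called, to 16417 for Cit, also not called, and the called genes ran from 2573 bases for Spc24 to 11020 for Kif15. With offsets that remove these trends and those with GC content, an alternative added after the data were seen, 30 of the 50 genes were called, beside 9.38% of all genes so tested. Without the offsets, 17 were called over the same genes, beside 6.01%. With the offsets all 50 were above 0, with a median of 0.46. Ect2 and Anln were called in that fit, at 0.37 and 0.40 on the log2 scale with edgeR adjusted p of 0.0293 and 0.0147, as were Kif23, Kif14 and Top2a. Cenpf moved to 0.28, Mki67 to 0.41, Smc4 to 0.26, Kif20b to 0.19 and Cenpe to 0.087. In the other direction Plk1 moved to 0.076, Cdc20 to 0.14, Ccnb2 to 0.12 and Pttg1 to 0.035. None of these 9 genes was called with the offsets. Of the 9 cytokinesis genes, 6 were thus past the threshold with the offsets against 2 without them.

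DE libraries of different name prefix were compared in a model with 3 groups. None of the 50 genes was called between DE replicates 3 and 5 (prefix 12) and DE replicates 1 and 7 (prefix 11), beside 2.06% of all tested genes, and 5 had an unadjusted edgeR p under 0.05. These 5 were Cit, Smc2 and Kif20b, lower with prefix 12 at log2 differences of -0.92, -0.52 and -0.46, and Cdc20 and Ube2c, higher by 0.47 each. In a fit of the 4 DE libraries alone 3 genes were called (Smc2, Cdc20 and Cit), beside 10.5% of all genes tested there, and 14 had an unadjusted p under 0.05. The share of all tested genes at this unadjusted p was not taken for either fit, so the counts of 5 and 14 are descriptions only. With the prefix as a term, 10 genes were called between DE and FA, beside 2.99% of all tested genes, with a median of 0.36. Of the 17 genes, Nuf2, Birc5, Incenp, Racgap1, Prc1, Ncaph, Kif22 and Kif4 were not called in that fit, and Top2a was (edgeR adjusted p = 0.0386). Neither cytokinesis gene was thus called with the prefix as a term, with edgeR adjusted p of 0.0647 for Prc1 and 0.162 for Racgap1. Some log2 fold changes moved by over 1.5 times in that fit, in both directions. Smaller values were those of Aurka (0.16), Ccnb2 (0.11), Cdc20 (0.047), Plk1 (0.048), Ube2c (0.30) and Cdca8 (0.36), and Pttg1 and Cenpa were below 0 at -0.12 and -0.13. Larger values were those of Cit (0.73), Smc2 (0.61), Mki67 (0.42), Kif20b (0.27) and Cenpf (0.13), and Cenpe was at 0.063. None of these 14 genes was called there. Among libraries of prefix 11 alone, 2 were called, Ndc80 and Kif15, beside 1.75%, with a median of 0.35 and 48 of 50 genes above 0. Since no FA library carries prefix 12, the prefix and the exposure cannot be told apart for DE replicates 3 and 5.

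Markers of other cells differed between the groups too. The summed level of 12 fibroblast genes was 3263, 2135, 3071 and 3684 CPM in FA and 6464, 4936, 3862 and 4753 CPM in DE, a ratio of 1.65, while that of the 50 division genes had a ratio of 1.27. All 12 fibroblast genes had a log2 fold change above 0 and 4 rose, beside 50.5% and 3.58% of all tested genes. Col1a1, the collagen I chain, rose by 0.95, and the matrix genes Dpt, Fbln1 and Dcn by 0.84, 0.78 and 0.56. The 16 cardiomyocyte genes summed to 87140 to 92810 CPM in FA and 74960 to 86460 CPM in DE, with 12 of 16 lower. Myh6 and Pln fell by 0.67 and 0.38 on the log2 scale, and Myh7, the fetal heavy chain, rose by 0.53. Endothelial sums were 1496 to 1927 CPM in FA and 1645 to 2407 CPM in DE, those of smooth muscle and pericytes 1643 to 2225 and 1229 to 1644, those of leukocytes 20.4 to 26.7 and 26.8 to 38.8, those of erythroid cells 760 to 1881 and 1209 to 2022, and those of the epicardium 111 to 146 and 107 to 150.3. Of the tested markers, 10 of 12 endothelial, 6 of 10 smooth muscle and pericyte, 7 of 8 leukocyte, 6 of 6 erythroid and 6 of 9 epicardial genes were above 0, and 1 was called, the erythroid Slc4a1. Over all tested genes 50.5% were above 0 and 5.8% were called. No marker that was found was at 0 CPM in all 8 libraries. The part of other cells in the higher division transcripts was not tested.

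**Figure D5:**
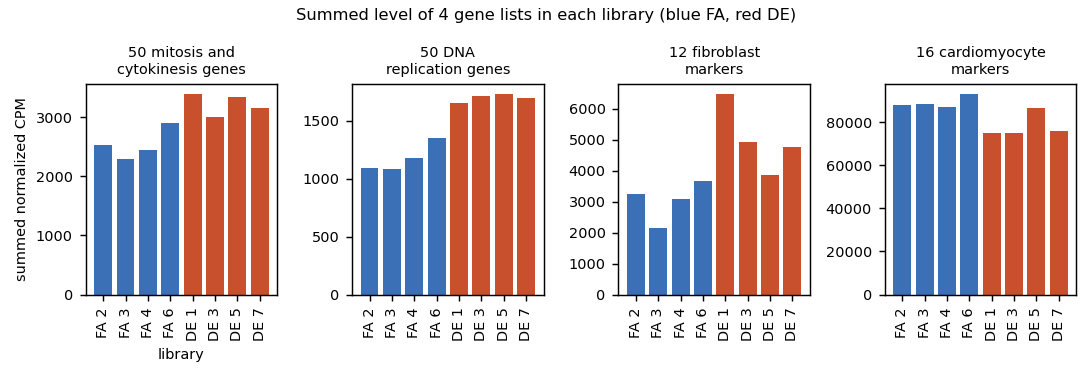
Summed normalized CPM of 4 gene lists in each library (bars from 0; FA blue, DE red). The sums of the 50 mitosis and cytokinesis genes, the 50 DNA replication genes and the 12 fibroblast markers are higher in every DE library than in every FA library. The sum of the 16 cardiomyocyte markers, in which Myh6 has a large part, is lower in every DE library.

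The wider machinery was read from lists of further genes. Of 107 mitotic partners, all tested, 81 were above 0 and 23 rose, beside 50.5% and 3.58% of all tested genes. Their median log2 fold change was 0.22. The smallest p values were those of Pbk, a mitotic kinase, Foxm1, the transcription factor of the mitotic program, and Melk, a kinase of dividing cells. These genes rose by 0.91, 0.60 and 0.71 on the log2 scale, with edgeR adjusted p of 0.00245, 0.003 and 0.00591. The gene that fell was Clasp1, which stabilizes microtubules also in cells that do not divide, at -0.55 (edgeR adjusted p = 0.0247). Of 39 cytokinesis partners, such as myosins, septins and formins, 38 were tested, 25 were above 0 and 1 rose, with a median of 0.10, beside 3.58% of all tested genes that rose. That gene was Diaph3, a formin, which rose by 0.69 (edgeR adjusted p = 0.0317), and the next by p, Myl12b and Septin6, were at 0.57 and 0.29 and were not called. Many of these partners also serve the cytoskeleton of cells that do not divide.

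DNA replication genes, which act in the preceding S phase, are given for comparison. Of 50 such genes, 46 were above 0 and 37 rose, beside 50.5% and 3.58% of all tested genes. None fell, beside 2.22%, and their median was 0.66. Among the mitosis and cytokinesis genes 17 rose, with a median of 0.38. Lig1, the replicative ligase, Gmnn, the licensing inhibitor geminin, and Chaf1a, a histone chaperone, rose by 1.02, 0.75 and 0.75. The summed level was 1094, 1079, 1174 and 1352 CPM in FA and 1648, 1715, 1726 and 1698 CPM in DE. FA replicate 6 was again the highest FA library. The difference between replication and division genes was not tested.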

How the data were processed

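Stranded libraries were made by the authors from poly-A RNA. Tophat placed the reads on mm10 with Ensembl v67 transcripts, duplicates were marked only, and featureCounts gave fragments per gene. The deposited values are raw counts for Entrez genes. The strand setting and the handling of fragments on several genes are not given in the sources used here, so counts of overlapping genes are uncertain. Duplicates remain in the counts.

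Of 27179 genes, 25275 were matched to RefSeq symbols (GRCm38.p6) and 1904 were not. filterByExpr in edgeR 4.0.16 (R 4.3.3, minimum count 10) kept 14966 genes. TMM-scaled counts were tested with glmQLFit and glmQLFTest, in a model of exposure alone, and p-values were adjusted by Benjamini-Hochberg over every tested gene. CPM use the same factors, and exon lengths and overlaps come from GENCODE vM21. Intervals are 1.96 SE to each side, a normal approximation. They are only nominally 95%, being narrower than the quasi-likelihood test allows. Those of Ccnb2, Smc2 and Aurka thus leave out 0, at unadjusted edgeR p of 0.0602, 0.0713 and 0.0512. Members, roles, lists and tests were chosen with earlier results of these data known. The lists were written from general knowledge. Per-library values are given for 15 of the 17 called genes, those lowest in adjusted p, the most abundant and the least different gene of each role, and Ect2, Anln, Racgap1, Cit and Aurkb. From each other list, the 3 genes with the smallest p are named. Clasp1, the marker genes and the genes that differed by prefix were picked after their values were seen. The code was tested on simulated data. Other fits used DESeq2 1.42.0, edgeR's likelihood ratio test, limma-voom (limma 3.58.1), other scaling factors, no filter, the name prefix as a term or prefix 11 only, a 25% difference built into the test, each library left out, and offsets for length and GC content. Nothing in the labels gives the dams, so p-values measure the spread between these hearts.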

Additional observations from a re-analysis of the deposited data

Results flagged for a closer look

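For some genes 1 library lay far from the other 3 of its group. The measure was that library's gap to its nearest neighbour divided by the range of the group, which exceeded Dixon's 95% limit in 10 of 118 groups of 4 values looked at. Chance gives about 1 in 20.

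In FA, replicate 6 was set above the other libraries for Mad2l1 (0.907), Ndc80 (0.914), Spc25 (0.881), Nusap1 (0.95) and Prc1 (0.893). For Ndc80 the other FA libraries lay between 15.9 and 16.3 CPM and FA replicate 6 at 21.5 CPM, still below every DE library. The same held for Spc25, Nusap1 and Prc1, whereas for Mad2l1 FA replicate 6, at 31.7 CPM, lay just above DE replicate 7 at 31.5 CPM. The mean level of the central spindle and cytokinesis genes set FA replicate 3 below the other FA libraries (0.849).

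In DE, replicate 5 was set above the other libraries for Nuf2 (0.897), Spc25 (0.854) and Birc5 (0.851). For Smc4 DE replicate 3, at 228 CPM, lay below the other DE libraries (0.912).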

How the results depend on the processing

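The log2 fold change was above 0 for 47 to 50 of the 50 genes, with a median of 0.35 to 0.46, under every alternative that was run (the 25% built into the test leaves both as they were). Over all tested genes 868 were called, against 1628 with DESeq2, 1603 with edgeR's likelihood ratio test, 448 with the prefix as a term, 260 with prefix 11 only, 114 with the 25% built into the test and 1339 with offsets for length and GC content. Of the 50 genes 17 were called, against 10, 2, 0 and 30 under the last 4 of these. With the 25% built in, 21 had an unadjusted edgeR p under 0.05, as did 1487 of all 14966 tested genes. DESeq2, the likelihood ratio test and scaling by library totals each called 25. Without 1 library, 237 to 1168 of all genes and 2 to 24 of the 50 were called. In the comparison of DE prefixes, 3 genes (Smc2, Cdc20 and Cit) were called with the 4 DE libraries alone, beside 10.5% of all genes tested there, against 0.

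The direction of 5 genes near 0 was not stable. With the prefix as a term or prefix 11 only, Pttg1 was at -0.12 and -0.12, Cenpa at -0.13 and -0.13, and Cenpe at 0.063 and 0.058, and with the offsets Cenpe was at 0.087. Without 1 library, log2 fold changes ranged from -0.011 to 0.22 for Pttg1, -0.082 to 0.18 for Cenpa, -0.18 to 0.034 for Cenpe, -0.12 to 0.10 for Cenpf and -0.083 to 0.14 for Kif20b. Where an alternative changed a value the cause was not tested, except that fewer libraries or genes entered some fits. Over single genes and alternatives, 836 values kept direction and side of the threshold, 99 lost and 49 gained a call, and 16 turned.

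No paired analysis was possible because the sources name no pairs of FA and DE hearts. Offsets were chosen after the data were seen. Counting error is small at 131 to 13150 fragments per gene and library, so the spread between 4 hearts per group limits what these data show.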
